A study of Mus musculus with 12 samples.

Results

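The glucocorticoid receptor gene Nr3c1, 5 genes whose transcription is known to rise when that receptor is active (Sgk1, Fkbp5, Tsc22d3, Zbtb16 and Cdkn1a) and the metallothionein genes Mt1 and Mt2 were followed in the left ventricle of mice after pressure overload and pimobendan. The genes were chosen by name, with earlier results of these data known. The 8 rows carrying these symbols were taken from a deposited table of 17052 genes. All 8 passed the filter on low values that 11415 genes passed. The 12 libraries came from C57BL/6 mice with no transgene named, 3 mice in each of 4 groups, every library from a separate mouse. Surgery was done at 8 weeks of age and the ventricle was taken at 12 weeks. Sham+control mice had sham surgery and Sham+pimobendan mice had sham surgery and oral pimobendan at 1 mg/kg/day for 4 weeks. TAC+control mice had transverse aortic constriction (TAC), in which the arch of the aorta is narrowed and the heart meets a raised pressure as it pumps, and TAC+pimobendan mice had TAC and the same drug course. Pimobendan is a calcium sensitizer and phosphodiesterase inhibitor used in heart failure. The labels name no drug or vehicle for the control mice, and give no hour of collection.

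The glucocorticoid receptor is held in the cytoplasm by heat shock protein 90 and its co-chaperones until corticosterone, the main glucocorticoid of mice, binds it. It then enters the nucleus and activates genes through glucocorticoid response elements, inverted repeats of a short core sequence of the kind AGAACA. Cardiac myocytes, fibroblasts, endothelial cells and macrophages all carry the receptor. Metallothioneins are small cysteine-rich proteins that bind zinc and copper, and their genes respond both to metals, through the factor MTF1 at metal response elements, and to glucocorticoids.

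Promoter sequences are given for the windows of Mt2 and Mt1, which carry repeated metal response element cores, and for the Sgk1 window that carries a full glucocorticoid response element. They are RefSeq sequences of GRCm38.p6, each from 250 bases before a transcription start to 30 bases after it. RefSeq windows of 300 bases, reaching 50 bases past the start, were available for 6 of the 8 genes, 14 windows in all, and none was available for Zbtb16 or Nr3c1. The metal response element core was searched as TGCGCNC or TGCACNC, the glucocorticoid response element as GNACANNNTGTNC and the single core as AGAACA, on both strands with no mismatch. Positions are counted with the start itself as 0. The Mt1 window belongs to a start later than 94178883, where the RefSeq span of the gene begins. The Mt1 elements before that later start therefore lie within the span. In the Mt2 and Mt1 sequences, both on the plus strand of chromosome 8, capitals mark the metal response element core. In the Sgk1 sequence, on the plus strand of chromosome 10, capitals mark each AGAACA element, on either strand, and the full element, which overlaps both elements of its run.
Mt2, chr8:94172368-94172647, plus strand: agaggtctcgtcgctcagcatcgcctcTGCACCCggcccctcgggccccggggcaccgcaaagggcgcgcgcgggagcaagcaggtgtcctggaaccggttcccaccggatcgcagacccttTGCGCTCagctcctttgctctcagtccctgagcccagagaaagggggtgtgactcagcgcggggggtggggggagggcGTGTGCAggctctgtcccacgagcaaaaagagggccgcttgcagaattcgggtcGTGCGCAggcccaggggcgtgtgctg
Mt1, chr8:94178839-94179118, plus strand: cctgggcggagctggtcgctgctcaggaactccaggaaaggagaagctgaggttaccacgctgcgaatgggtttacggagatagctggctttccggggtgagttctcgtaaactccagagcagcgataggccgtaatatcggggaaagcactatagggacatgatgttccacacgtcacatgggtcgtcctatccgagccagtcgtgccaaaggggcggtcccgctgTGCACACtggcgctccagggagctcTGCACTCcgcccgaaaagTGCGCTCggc
Sgk1, chr10:21993640-21993919, plus strand: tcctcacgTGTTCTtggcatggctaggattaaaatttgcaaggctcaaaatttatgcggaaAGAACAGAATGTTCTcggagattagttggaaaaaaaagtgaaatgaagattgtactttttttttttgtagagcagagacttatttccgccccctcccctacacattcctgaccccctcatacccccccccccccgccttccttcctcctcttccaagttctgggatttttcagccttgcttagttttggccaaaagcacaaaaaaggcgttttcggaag
The Mt2 window held 4 cores, starting at positions -223, -128, -50 and 5, and the Mt1 window held 3, at -23, 3 and 21. Of the 14 windows 3 held a core, the third being another Sgk1 window. At least 1 core was present in 25.7% of the 32851 promoter windows in the table, and 3 or more in 1.97%. The full glucocorticoid response element was found in 2 of the 14 windows, against 0.475% of all windows. Mt1 carried it as GGACATGATGTTC at -94 (in lower case above) and Sgk1 carried it as GAACAGAATGTTC at -188, in the fifth of its 6 windows by coordinate. The AGAACA element was present in 4 of the 14 windows, 3 times in the Sgk1 window shown, and in 19% of all windows. Windows of Fkbp5 and Cdkn1a held no full element and no AGAACA element.

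FPKM, the unit of the deposited values, is fragments scaled to transcript length and library size, so levels can be compared between genes per unit length. Differences between groups are on the log2(FPKM + 1) scale with the standard error (SE) of limma. Calls were made where p, after Benjamini-Hochberg adjustment over all 11415 genes, was under 0.05. Sums of FPKM lay between 593203 and 643478 per library, and 10809 to 11292 genes reached 1 FPKM. The table holds no counts, so sequencing depth is unknown and no counting interval is given. Ventricular muscle markers were present in every library: 8 cardiomyocyte genes summed to 42890 to 50690 FPKM, while 6 atrial markers summed to at most 5.02 FPKM. Neutrophil, T and NK cell, and B cell markers summed to at most 10.5, 2.37 and 2.43 FPKM.

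Averaged over the 12 libraries, Mt1 stood at 534 FPKM. Sgk1 at 81.4, Mt2 at 77.1 and Tsc22d3 at 58.7 FPKM came next, and their ranges over libraries overlapped widely. Cdkn1a averaged 24.5, Nr3c1 12.2, Zbtb16 9.45 and Fkbp5 6.13 FPKM, and the ranges of each neighbouring pair in this order overlapped. Mt1 alone did not overlap its neighbour: its lowest library, at 382 FPKM, was above the highest Sgk1 value of 178 FPKM.

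**Figure D1:**
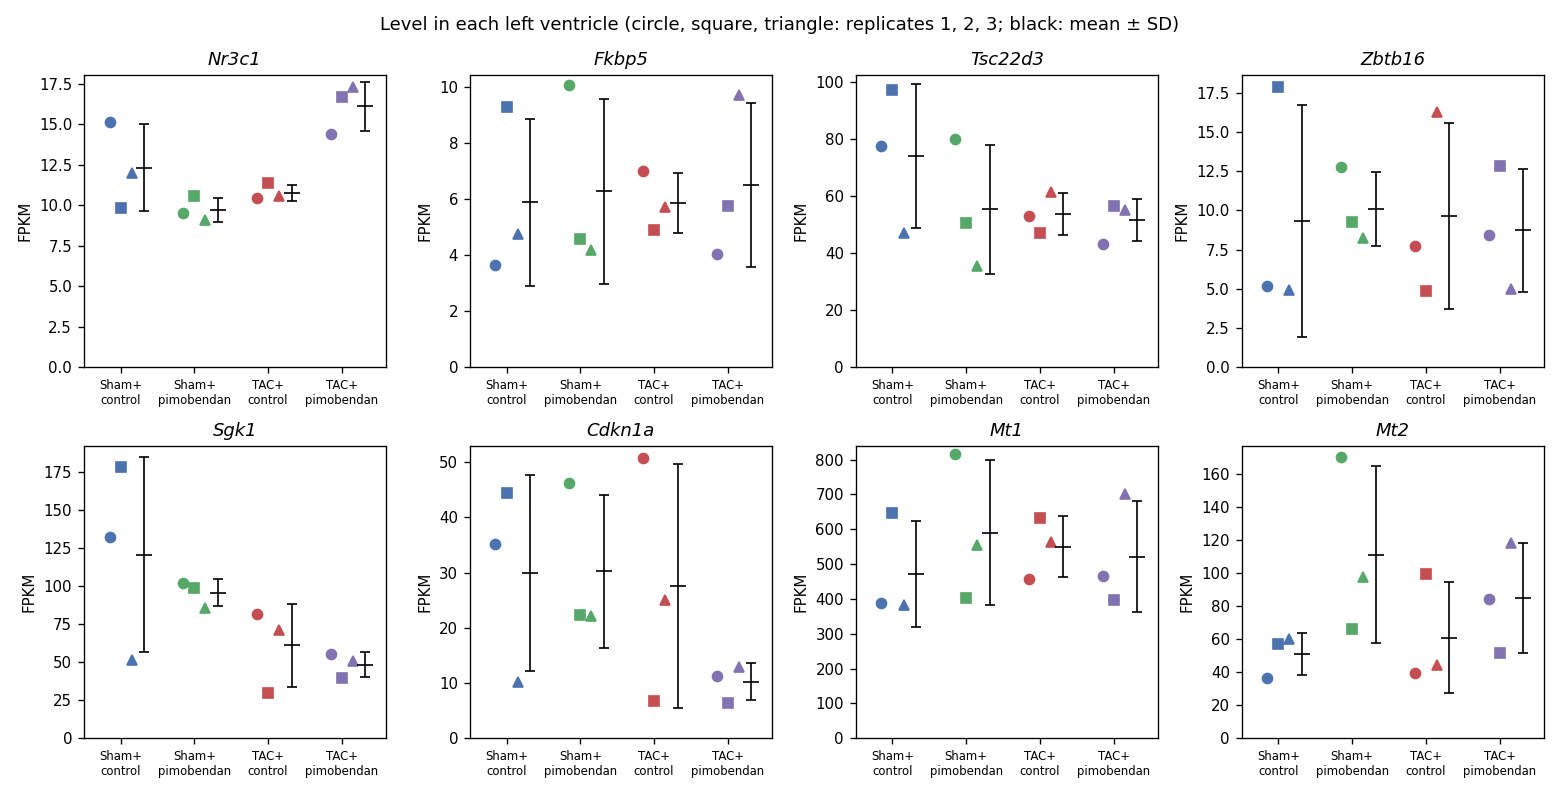
FPKM of each gene in each left ventricle, by group; circle, square and triangle are replicates 1, 2 and 3, and black marks are the mean with the standard deviation. The 3 TAC+pimobendan libraries were the highest for Nr3c1 except that 1 Sham+control library, at 15.1 FPKM, exceeded replicate 1; Mt1 and Fkbp5 show no separation of groups.

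Nr3c1 was the 1 gene of the 8 called in any comparison. It encodes the receptor itself and lies on the minus strand of chromosome 18, from 39410545 to 39519421 (GRCm38.p6). The 3 TAC+pimobendan libraries measured 14.4, 16.6 and 17.3 FPKM, and the 3 TAC+control libraries 10.4, 11.3 and 10.6 FPKM. Sham+control libraries measured 15.1, 9.80 and 12.0 FPKM, and Sham+pimobendan libraries 9.51, 10.5 and 9.08 FPKM. Every TAC+pimobendan value was above every TAC+control and every Sham+pimobendan value, but the first Sham+control library lay within their range. Groups failed to overlap for 29.9% of all genes against TAC+control and for 27.9% against Sham+pimobendan. In whole ventricle, more receptor-expressing cells and more receptor RNA per cell cannot be told apart.

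In TAC mice given pimobendan Nr3c1 averaged 16.1 ± 1.51 FPKM (SD, n = 3) and in TAC mice without it 10.8 ± 0.494 FPKM (SD, n = 3). The log2 difference was 0.54 ± 0.13 (95% interval 0.25 to 0.82; limma with Benjamini-Hochberg adjustment, adjusted p = 0.0488). Nr3c1 was the 1 member of 8 called in this comparison, in which 3.27% of all genes tested were called, 360 higher and 13 lower. The median gene moved by 0.0954, and Nr3c1 stood 0.44 above it. The call was close to the threshold. With the replicate number as a block, the adjusted p was 0.0886 and the number of genes called fell from 373 to 1. Same-numbered libraries of these 2 groups deviated together in all 3 pairs (r of 0.154, 0.208 and 0.101), but the labels name no pairing. With a correction for GC content the difference was 0.46 and the adjusted p 0.113. After median-ratio scaling, which moves the median gene to -0.0058, it was 0.42 with an adjusted p of 0.0746. Leaving out 1 of the 12 libraries kept the call in 2 cases, without Sham+control replicate 1 and without TAC+pimobendan replicate 1. Of 22 alternative settings, 4 kept the call, with adjusted p from 0.0236 to 0.185, and the difference stayed between 0.42 and 0.62.

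Between TAC+pimobendan and Sham+pimobendan, Nr3c1 was 16.1 ± 1.51 against 9.71 ± 0.75 FPKM (SD, n = 3 each). The log2 difference was 0.67 ± 0.13 (95% interval 0.39 to 0.96; limma adjusted p = 0.0314, Benjamini-Hochberg). It was again 1 of 8 members called, and 4.89% of all genes were called here, 530 higher and 28 lower. The call held under 13 of 22 alternative settings, and the difference lay between 0.62 and 0.75. It was lost when Sham+pimobendan replicate 2 (adjusted p 0.0834) or 3 (0.153), or TAC+pimobendan replicate 2 (0.168) or 3 (0.152), was left out of the limma fit. With the replicate block the adjusted p from limma was 0.0652. The 2 comparisons share the TAC+pimobendan libraries.

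Without drug, the difference in Nr3c1 between TAC and sham did not pass the test. The means were 10.8 ± 0.494 after TAC and 12.3 ± 2.69 FPKM after sham (SD, n = 3 each), a log2 difference of -0.16 ± 0.13 (95% interval -0.44 to 0.13; limma adjusted p = 0.754). In sham mice pimobendan went with a lower mean, 9.71 against 12.3 FPKM, a log2 difference of -0.30 ± 0.13 (95% interval -0.58 to -0.012; limma adjusted p = 0.91). The difference between both TAC effects, with drug minus without, was 0.83 ± 0.19 (95% interval 0.43 to 1.23). It missed the threshold (limma adjusted p = 0.0853) and ranked 64th of 11415 genes by unadjusted p. That adjusted p, the smallest in the test, was shared with other genes, Fbxo32 among them. The threshold was passed in 1 of 21 alternatives, without TAC+pimobendan replicate 1 (0.90, limma adjusted p 0.0222).

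Several other measures also differed between TAC+pimobendan and TAC+control. The GC trend of a library is Spearman's rho, taken over genes, of GC content with how far the library's value lies from the 12-library mean. It was -0.195, -0.504 and -0.523 in the TAC+pimobendan libraries and between -0.347 and 0.529 in the other 9. The lowest of those 9, -0.347, was Sham+control replicate 1, where Nr3c1 stood at 15.1 FPKM. With group means subtracted from both, Nr3c1 and the GC trend gave r = -0.595. That value leaves out the differences between groups. Over the 12 libraries Nr3c1 and the GC trend gave r = -0.286 (permutation p = 0.366, adjusted over the 8 genes p = 0.702) and rho = -0.189. Of all genes tested, 24.3% had an r below that of Nr3c1. Summed levels of 10 macrophage markers were 368 to 482 FPKM in TAC+pimobendan and 335 to 362 FPKM in TAC+control, all 10 had a positive difference, and Ctss, a macrophage protease gene, was called (0.82 ± 0.17; limma adjusted p = 0.0409, with the replicate block 0.0789). Summed levels of 8 erythroid markers were 1154 to 2295 FPKM against 4213 to 6721 FPKM, with Alas2 called lower (-1.22 ± 0.26; limma adjusted p = 0.0409, with the replicate block 0.0788) and Slc4a1 at 0 in at least 1 library. Against Sham+pimobendan, where Nr3c1 was also called, both marker sums overlapped. Macrophage sums there were 358 to 533 FPKM, and 5 of the 10 markers had a positive difference after TAC. Erythroid sums there were 462 to 1917 FPKM, and 7 of the 7 markers tested had a positive difference. Of 8 cardiomyocyte markers, Pln was called higher against TAC+control (0.50 ± 0.10) and Actn2 lower (-0.38 ± 0.078). Each had a limma adjusted p of 0.0409 and was called in 9 of 22 alternative settings. In that comparison 3.27% of all genes were called. Smooth muscle and pericyte markers, 8 in number, summed to 303 to 311 FPKM in TAC+pimobendan and 266 to 293 FPKM in TAC+control. A positive difference was found for 7 of the 8, and 0 were called. The part of these measures in the Nr3c1 difference was not tested.

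**Figure D2:**
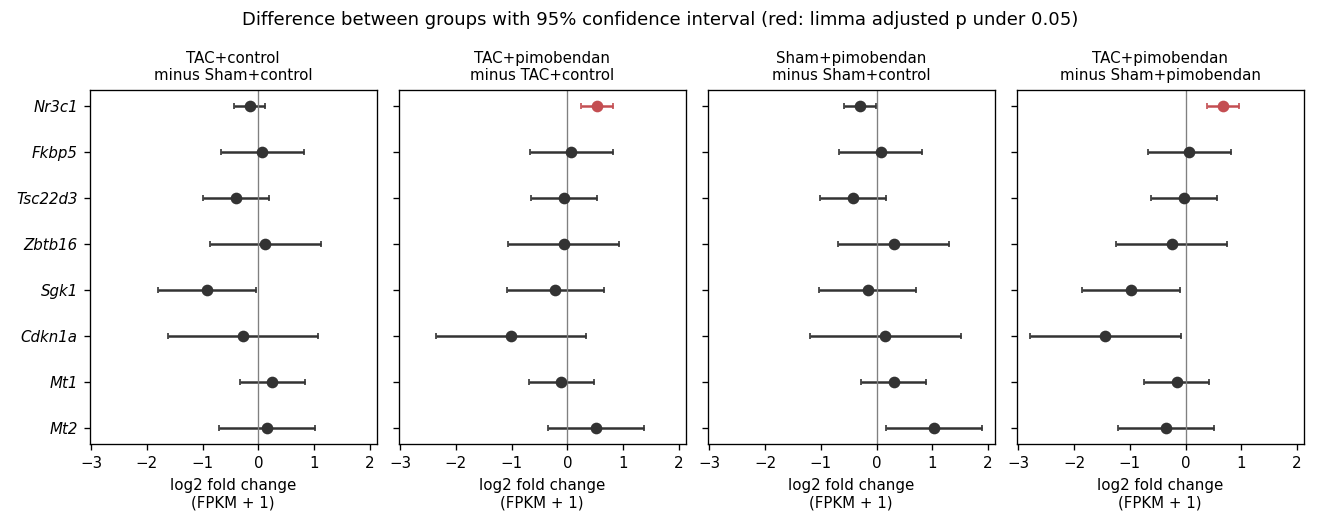
Log2 differences in FPKM + 1 between groups with 95% confidence intervals from limma, 1 panel for each comparison; red marks an adjusted p under 0.05. Nr3c1 is red in both TAC+pimobendan panels; every other interval in the panel against TAC+control spans 0, and in the panel against Sham+pimobendan those of Sgk1 and Cdkn1a end just below it.

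Fkbp5, Tsc22d3 and Zbtb16, targets often used as readouts of the receptor, were called in no comparison. Fkbp5 encodes a co-chaperone that lowers the receptor's affinity for hormone, so that its induction feeds back on the receptor; it lies on the minus strand of chromosome 17, from 28398753 to 28486149. Sham+control libraries measured 3.63, 9.26 and 4.74 FPKM, while Sham+pimobendan libraries measured 10.1, 4.56 and 4.19 FPKM. After TAC the values were 7.00, 4.88 and 5.72 FPKM without the drug and 4.03, 5.75 and 9.70 FPKM with it. The group means ran from 5.87 ± 1.07 to 6.49 ± 2.91 FPKM (SD, n = 3) and every pair of groups overlapped. All 4 log2 differences lay between 0.062 and 0.076 with an SE of 0.34. The 95% interval of TAC without drug ran from -0.67 to 0.81 (limma adjusted p = 0.965), and the other 3 were as wide. The sign of the TAC+pimobendan minus TAC+control difference changed to -0.035 under median-ratio scaling, -0.094 under quantile normalization and -0.03 with the GC correction.

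Tsc22d3 encodes GILZ, a leucine zipper protein that carries part of the anti-inflammatory action of glucocorticoids, and lies on the minus strand of chromosome X, from 140539528 to 140600522. Sham+control libraries measured 77.6, 97.0 and 47.1 FPKM and Sham+pimobendan libraries 79.9, 50.5 and 35.6 FPKM. TAC+control libraries measured 53.04, 46.9 and 61.5 FPKM and TAC+pimobendan libraries 43.2, 56.6 and 55.2 FPKM. The 3 highest values were all from sham hearts, and so was the lowest. The TAC difference without drug was -0.40 ± 0.27 (95% interval -0.99 to 0.20; limma adjusted p = 0.709), and that of pimobendan in sham mice was -0.43 ± 0.27 (-1.02 to 0.17; limma adjusted p = 0.91). In TAC mice pimobendan gave -0.060 ± 0.27 (limma adjusted p = 0.912), positive at 0.012 with TPM in place of FPKM.

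Zbtb16 encodes PLZF, a zinc finger repressor strongly induced by glucocorticoids in many cell types, and lies on the plus strand of chromosome 9, from 48651797 to 48836225. After sham surgery it was listed at 5.18, 17.9 and 4.92 FPKM without the drug and at 12.7, 9.28 and 8.24 FPKM with it. After TAC it was listed at 7.73, 4.88 and 16.3 FPKM without the drug and at 8.43, 12.8 and 4.99 FPKM with it. In Sham+control and in TAC+control 1 library stood well above the other two. The log2 differences ran from -0.25 to 0.31 with an SE of 0.46, and no comparison was called (limma adjusted p from 0.775 to 0.954).

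Sgk1 had a lower mean after TAC both with and without the drug, but neither difference passed adjustment. It encodes a kinase that raises the activity of sodium channels and transporters, is related to AKT, and is induced by glucocorticoids and mineralocorticoids and by serum and cell stress; the gene lies on the plus strand of chromosome 10, from 21882184 to 21999903. Sham+control libraries measured 132, 178 and 51.6 FPKM and Sham+pimobendan libraries 102, 98.9 and 85.9 FPKM. TAC+control libraries measured 81.8, 29.9 and 71.4 FPKM and TAC+pimobendan libraries 55.2, 39.6 and 50.6 FPKM. Of the 6 sham hearts 5 were above every TAC heart, and the exception was Sham+control replicate 3.

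Without drug the means were 61.0 ± 27.5 FPKM after TAC and 120.6 ± 64.01 FPKM after sham (SD, n = 3 each), a log2 difference of -0.92 ± 0.40 (95% interval -1.79 to -0.047; limma adjusted p = 0.585). With drug they were 48.4 ± 8.01 and 95.7 ± 8.65 FPKM (SD, n = 3 each), a log2 difference of -0.98 ± 0.40 (-1.85 to -0.10; limma adjusted p = 0.172). The TAC+pimobendan and Sham+pimobendan values did not overlap, as was so for 27.9% of all genes in that comparison. These 2 comparisons share no library. The mean of both TAC effects, a contrast added after the data were seen, was -0.95 ± 0.29 (95% interval -1.57 to -0.33; limma adjusted p = 0.248). In that contrast 0 of 11415 genes (0%) and 0 of 8 members were called by limma, 1610 genes having an unadjusted p under 0.05. Over 21 alternatives the Sgk1 value stayed between -1.21 and -0.73, with adjusted p from 0.132 to 0.475. The difference between both TAC effects was -0.057 ± 0.57 (95% interval -1.29 to 1.18), too wide to say whether they were alike. Pimobendan gave -0.16 ± 0.40 in sham mice and -0.22 ± 0.40 in TAC mice, both with intervals across 0.

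Cdkn1a was low in all 3 TAC+pimobendan hearts and ranged widely elsewhere. It encodes p21, an inhibitor of cyclin-dependent kinases that is induced by p53 as well as by glucocorticoids, and lies on the plus strand of chromosome 17, from 29090979 to 29100722. TAC+pimobendan libraries measured 11.25, 6.46 and 12.9 FPKM. TAC+control libraries measured 50.7, 6.71 and 25.1 FPKM, so that replicate 2 was as low as the drug-treated hearts and replicate 1 was the highest of all 12. Sham+control libraries measured 35.1, 44.4 and 10.2 FPKM and Sham+pimobendan libraries 46.3, 22.4 and 22.1 FPKM.

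The groups that did not overlap were TAC+pimobendan at 10.2 ± 3.35 FPKM and Sham+pimobendan at 30.3 ± 13.9 FPKM (SD, n = 3 each), in a comparison where 27.9% of all genes did not overlap. The log2 difference was -1.44 ± 0.62 (95% interval -2.80 to -0.090; limma adjusted p = 0.191). Against TAC+control it was -1.01 ± 0.62 (-2.36 to 0.34; limma adjusted p = 0.325), and without TAC+control replicate 2 it was -1.76, still not called. TAC without drug gave -0.27 ± 0.62 (-1.63 to 1.08; limma adjusted p = 0.923), which became 0.48 without that same library.

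Neither metallothionein was called in any comparison. Mt1 and Mt2 lie on the plus strand of chromosome 8, from 94178883 to 94180327 and from 94172618 to 94173567 in RefSeq, with 5315 bases between them. The deposited Mt1 entry spans 94179084 to 94184982, beyond that RefSeq end, with 3 transcripts, 1 of them not from RefSeq. The part of this span in the Mt1 level was not tested. Because the genes are paralogs, reads that fit both could be split between them, and how the counting treated such reads is not given in the sources used here. After sham surgery Mt1 was listed at 388, 647 and 382 FPKM without the drug and at 816, 402 and 555 FPKM with it. After TAC it stood at 457, 631 and 563 FPKM without the drug and at 466, 397 and 701 FPKM with it. Its log2 differences ran from -0.16 to 0.31 with an SE of 0.27, and none was called (limma adjusted p from 0.751 to 0.91).

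Mt2 was higher in sham mice given pimobendan than in sham mice without it, without overlap. Sham+control libraries measured 36.7, 57.05 and 60.1 FPKM and Sham+pimobendan libraries 170, 66.0 and 97.5 FPKM. TAC+control libraries measured 39.3, 99.7 and 44.2 FPKM and TAC+pimobendan libraries 84.5, 51.9 and 118 FPKM. In sham mice the log2 difference was 1.03 ± 0.40 (95% interval 0.17 to 1.89), with an unadjusted p of 0.0230 and an adjusted p of 0.91 from limma. Groups failed to overlap for 11.1% of all genes in that comparison. In TAC mice it was 0.52 ± 0.40 (-0.34 to 1.38; limma adjusted p = 0.435), with overlap. The mean of both pimobendan effects, also added after the data were seen, was 0.77 ± 0.28 for Mt2 (95% interval 0.16 to 1.38; limma adjusted p = 0.353) and 0.10 ± 0.19 for Mt1 (-0.32 to 0.52; limma adjusted p = 0.848). In that contrast 1 of 11415 genes (0.00876%) and 0 of 8 members were called.

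Expressed as a percentage of Mt1 in the same library, Mt2 after sham surgery was 9.46, 8.81 and 15.7% without the drug and 20.9, 16.4 and 17.6% with it. After TAC it was 8.61, 15.8 and 7.86% without the drug and 18.1, 13.1 and 16.9% with it. The percentage averaged 18.3 ± 2.31 with drug against 11.3 ± 3.83 without it in sham mice (SD, n = 3 each; exact two-sided permutation p = 0.1, the smallest that 3 against 3 allows). In TAC mice it averaged 16.03 ± 2.64 against 10.8 ± 4.38 (SD, n = 3 each; exact two-sided permutation p = 0.2). This measure was added after the data were seen, and 2 libraries without the drug, at 15.7% after sham and 15.8% after TAC, lay within the range of the 6 libraries with it.

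**Figure D3:**
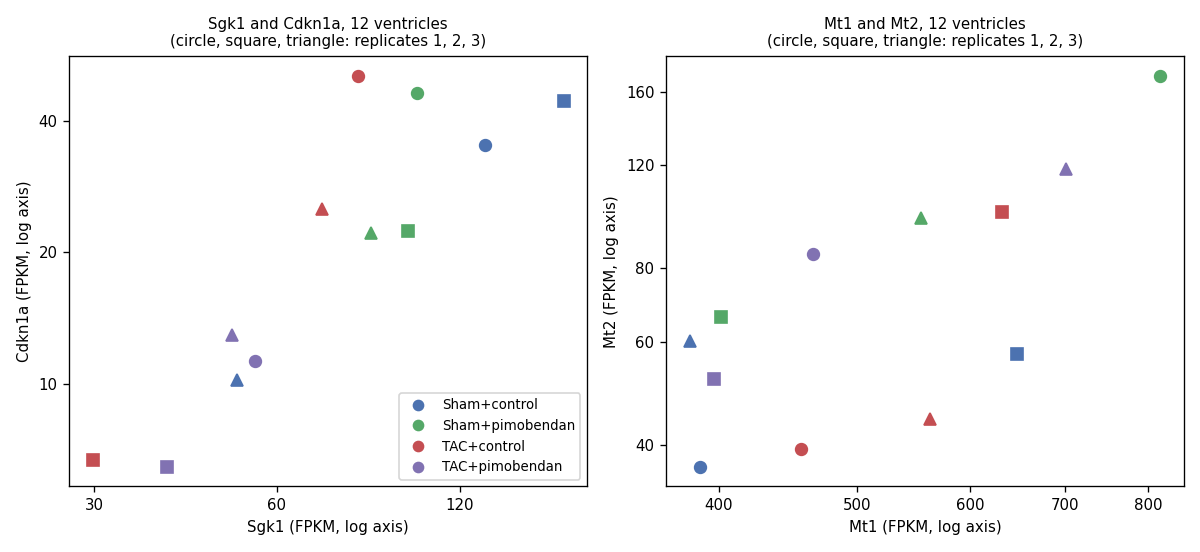
Sgk1 against Cdkn1a and Mt1 against Mt2 in the 12 left ventricles, FPKM on log axes; colours are groups and shapes are replicates. Sgk1 and Cdkn1a rise together over libraries of all groups, and Mt2 tends to be higher at a given Mt1 level in the drug-treated libraries.

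Sham+pimobendan against Sham+control gave 0 calls among 11415 genes (0%) and 0 among the 8 members by limma, with 518 genes and 2 members, Mt2 and Nr3c1, at an unadjusted p under 0.05. TAC+control against Sham+control likewise gave 0 calls (0%) by limma, with 951 genes and 1 member, Sgk1, under that unadjusted p. No member separated those groups fully, against 12.7% of all genes. The difference between both TAC effects gave 0 calls (0%) by limma, with 2312 genes and 1 member, Nr3c1, under 0.05 unadjusted. The median member difference was -0.043 in TAC without drug, where the median gene stood at -0.057. In TAC mice on drug against TAC mice without it, these medians were -0.061 and 0.0954.

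For 7 of the 8 genes, mice of the same group differed more than is usual for a gene in this table. The within-group SD, on the log2(FPKM + 1) scale, was 0.96 for Cdkn1a, 0.70 for Zbtb16, 0.62 for Sgk1, 0.61 for Mt2, 0.52 for Fkbp5 and 0.41 for both Tsc22d3 and Mt1. The median over the 11415 genes was 0.15 and the 90th percentile 0.28. These 7 genes had percentiles from 97.0 (Mt1) to 99.7 (Cdkn1a), and among the 7500 genes with a mean of at least 5 FPKM between 97.3 and 99.7. Nr3c1, with 0.17, had a percentile of 59.8. The highest library exceeded the lowest 7.85 times for Cdkn1a, 5.96 times for Sgk1, 4.64 times for Mt2 and 1.90 times for Nr3c1. Differences within groups made up 98.7% of the sum of squares of Fkbp5 and 96.1% of that of Zbtb16, but 52% of that of Sgk1 and 23.2% of that of Nr3c1. The median gene had 60.9%.

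**Figure D4:**
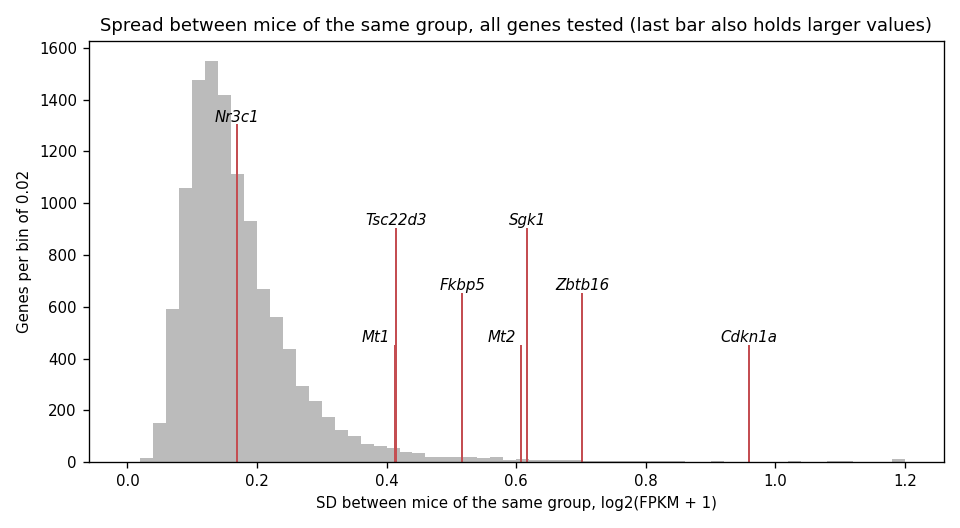
Histogram of the SD between mice of the same group, on the log2(FPKM + 1) scale, over the 11415 genes tested; the last bar also holds larger values, and red lines mark the 8 genes. Nr3c1 lies in the bulk of genes and the other 7 lie in the upper tail, Cdkn1a farthest out at 0.96.

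Libraries that were high for one gene were not high for all. Sham+pimobendan replicate 1 ranked 1st of 12 for Fkbp5, Mt1 and Mt2 and 2nd for Tsc22d3 and Cdkn1a. Sham+control replicate 2 ranked 1st for Sgk1, Tsc22d3 and Zbtb16 but 8th for Mt2. TAC+control replicate 2 ranked 12th for Sgk1 and Zbtb16 and 11th for Cdkn1a, yet 3rd for Mt2. Sham+control replicate 3 ranked between 7th and 12th for the 7 genes other than Nr3c1.

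Across the 12 libraries, 28 pairs of genes were compared, and 17 of the 28 had a positive r. Sgk1 and Cdkn1a gave r = 0.882 (permutation p = 0.00018, adjusted over the 28 pairs p = 0.00504) and rho = 0.811 (permutation p = 0.00212, adjusted p = 0.0594). Their r was 0.856 without Sham+control replicate 2 and TAC+control replicate 2, the libraries farthest from the median of Sgk1, and 0.927 within groups. It was the 1 pair past the adjusted threshold by r, and by rho 0 pairs were. The glucocorticoid response genes outside this pair moved less closely with it: Sgk1 gave r = 0.614 with Tsc22d3 (permutation p = 0.034, adjusted p = 0.238), 0.189 with Fkbp5 and 0.425 with Zbtb16.

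Mt1 and Mt2 gave r = 0.709 (permutation p = 0.0106, adjusted p = 0.0989) and rho = 0.636 (permutation p = 0.0289, adjusted p = 0.262). The relation fell to r = 0.41 without Sham+pimobendan replicate 1 and TAC+pimobendan replicate 3, so it rests partly on those libraries, and it was 0.786 within groups. Fkbp5 and Mt1 gave r = 0.718 (permutation p = 0.0103, adjusted p = 0.0989) and rho = 0.65 (permutation p = 0.0255, adjusted p = 0.262), and r = 0.453 without the same libraries and 0.746 within groups. Nr3c1 had a negative r with each of the 7 others, from -0.031 with Tsc22d3 to -0.546 with Cdkn1a, and none passed adjustment. All of these points share their library preparation and scaling with each other.

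Of all genes tested, those with the most similar pattern over the 12 libraries were listed for each gene by r of log2(FPKM + 1), as a description. For Nr3c1 they were Atxn3 (0.978), Emsy (0.978) and Tdrd3 (0.971). For Sgk1 they were Lrrc8a (0.940), Gas1 (0.936) and S1pr1 (0.921), and for Cdkn1a 3110040M04Rik (0.902), Lrrc8a (0.883) and Sgk1 itself (0.882). Sgk1 and Cdkn1a thus shared Lrrc8a, a volume-regulated chloride channel subunit, which ranged from 13.2 to 26.1 FPKM. Tsc22d3 was closest to Mreg (0.926), Limd1 (0.863) and Stc1 (0.853), and Zbtb16 to Timp4 (0.870), Fgfr3 (0.836) and Tmem164 (0.835). Fkbp5 was closest to Spock2 (0.861), Trmt5 (0.840) and Ly6c1 (0.823). Mt1 was closest to Ppil6 (0.851), Zfp707 (0.850) and Ldhb (0.848), and Mt2 to Eef2k (0.880), Prodh (0.872) and 1810010H24Rik (0.872).

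Around the receptor, 18 of 19 genes for chaperones, steroid enzymes and coregulators (Nr3c1 and Fkbp5 included) were tested. Against TAC+control, TAC+pimobendan had Nr3c1 alone called, where 3.27% of all genes were called. Against Sham+pimobendan 2 were called higher, Nr3c1 and Hsp90aa1, and 0 lower, where 4.89% of all genes were called, 530 higher and 28 lower. Hsp90aa1, the inducible form of heat shock protein 90, measured 15.95, 14.7 and 16.8 FPKM in Sham+pimobendan and 21.4, 34.1 and 37.1 FPKM in TAC+pimobendan (0.89 ± 0.23; limma adjusted p = 0.0455; with the replicate block 0.086). Its Sham+control values of 39.0, 24.7 and 19.5 FPKM lay over the same range as those after TAC with the drug. In the 2 comparisons against Sham+control, and in the difference between both TAC effects, 0 of the 18 were called by limma.

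Of 45 further genes known to respond to glucocorticoids, 42 were tested. In TAC mice 1 rose with pimobendan and 0 fell, where 3.27% of all genes were called. This was Fbxo32, a muscle ubiquitin ligase gene, at 6.45, 8.46 and 13.4 FPKM without the drug and 18.6, 27.7 and 21.5 FPKM with it (1.21 ± 0.27; limma adjusted p = 0.0433, with the replicate block 0.08). Without drug Fbxo32 had the smallest p of the list between TAC and sham, at -1.38 ± 0.27 (limma adjusted p = 0.384).

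With pimobendan, 2 of the 42 fell after TAC and 0 rose, where 4.89% of all genes were called. Nfkbia, which encodes an inhibitor of NF-kappaB, measured 48.4, 46.05 and 35.8 FPKM in Sham+pimobendan and 26.3, 25.2 and 25.7 FPKM in TAC+pimobendan (-0.72 ± 0.15; limma adjusted p = 0.0314, with the replicate block 0.0652). Cebpd, a transcription factor gene, measured 17.3, 21.1 and 12.3 FPKM against 9.34, 7.93 and 9.69 FPKM (-0.81 ± 0.17; limma adjusted p = 0.0314, with the replicate block 0.0655). Both genes, named because they were called, had no overlap between these groups, as was so for 27.9% of all genes. The median of the 42 was -0.16 where the median gene stood at -0.0061, and it was -0.29 in TAC without drug, where the median gene stood at -0.057. In the remaining 3 tests, TAC without drug, pimobendan in sham mice and the difference between both TAC effects, 0 of the 42 were called by limma.

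Of the genes for metal response and zinc or copper handling, 28 of 35 were tested and 0 were called by limma in any of the 5 tests. Their median was -0.059 in TAC without drug and 0.071 for pimobendan in TAC mice, against -0.057 and 0.0954 for all genes. The smallest p among them in both of those comparisons belonged to Slc30a5, a zinc transporter gene, at -0.33 ± 0.11 (limma adjusted p = 0.534) and 0.31 ± 0.11 (limma adjusted p = 0.101). Genes of the SGK family and its substrates, 15 tested of 16, also had 0 calls by limma in the 5 tests.

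Between TAC+pimobendan and TAC+control 3.27% of all genes were called, 360 higher and 13 lower. Among 24 tested genes of p53 response and cell cycle arrest, Cdkn1b, which encodes the related inhibitor p27, was the 1 called, higher in TAC+pimobendan. It measured 18.5, 17.0 and 19.2 FPKM against 13.3, 14.1 and 14.0 FPKM (0.38 ± 0.090; limma adjusted p = 0.0463, with the replicate block 0.0865), a difference that was 0.11 with the GC correction. Cdkn1a, by contrast, had a lower mean there. Against Sham+pimobendan 2 p53 targets or regulators were called higher and 0 lower: Ccng1 (0.67 ± 0.14; limma adjusted p = 0.0314, with the replicate block 0.0652) and Mdm4 (0.61 ± 0.16; limma adjusted p = 0.0458, with the replicate block 0.0837). With the GC correction these became 0.084 and 0.33, and neither was called. Without the correction 4.89% of all genes were called in that comparison, 530 higher and 28 lower.

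The clock and immediate early genes were examined since glucocorticoids vary over the day and Sgk1 and Cdkn1a answer to stress. Of 19 clock genes tested, Hlf was called higher in TAC+pimobendan than in Sham+pimobendan (0.71 ± 0.19; limma adjusted p = 0.0496, with the replicate block 0.0853), and 0 were called in the other 4 tests by limma. In the comparison where Hlf was called, 4.89% of all genes were called. The clock median was 0.42 for pimobendan in TAC mice and 0.35 for TAC in mice on drug, against 0.0954 and -0.0061 for all genes. Nr1d2, with the smallest clock p for pimobendan in TAC mice, measured 6.06, 22.2 and 18.0 FPKM in TAC+control, so that replicate 1 stood apart. In TAC+pimobendan it measured 27.0, 33.8 and 29.4 FPKM (1.08 ± 0.32, limma adjusted p = 0.0669). Of 25 immediate early genes 0 were called by limma, and 2 of the 25 had a positive difference after TAC without drug, where the median was -0.82. The count was also 2 of 25 for TAC in mice on drug, with a median of -0.47, and 5 of 25 for pimobendan in sham mice, with a median of -0.32. Zfp36, with the smallest p, measured 180, 260 and 96.7 FPKM in Sham+control and 42.0, 45.2 and 110 FPKM in TAC+control (-1.46 ± 0.38; limma adjusted p = 0.408). The part of the hour of collection in any of these values was not tested.

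In the comparison of TAC+pimobendan with Sham+pimobendan, where Sgk1 and Cdkn1a did not overlap, a few vascular markers were called, against 4.89% of all genes. Of 10 endothelial markers 2 were called lower, Esam (-0.39 ± 0.095; limma adjusted p = 0.0409, with the replicate block 0.0837) and Pecam1 (-0.45 ± 0.12; limma adjusted p = 0.0497, with the replicate block 0.0909), and 0 higher, and 4 of the 10 had a positive difference. Their summed levels were 1428 to 1617 FPKM in Sham+pimobendan and 1280 to 1664 FPKM in TAC+pimobendan. Of 8 smooth muscle and pericyte markers, Acta2 was called lower (-1.79 ± 0.37; limma adjusted p = 0.0314, with the replicate block 0.0652) and 3 of the 8 had a positive difference, with sums of 314 to 403 against 303 to 311 FPKM. None of these markers was at 0 in any library. Their part in the Sgk1 and Cdkn1a values was not tested.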

How the data were processed

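Messenger RNA was selected with oligo(dT) beads and sequenced as DNA nanoballs, per the labels' protocols. The authors deposited FPKM and TPM values per gene, rounded to 2 decimals. Names in the submitters' processing notes, with no role given, are RSEM 1.2.12, DESeq2 1.4.5, HISAT2 2.0.4, Bowtie2 2.2.5 and the build GRCm38. Groups follow the sample titles. The 8 genes and all lists were chosen with earlier results of these data known.

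In R 4.3.3, limma 3.58.1 fitted 4 group means to log2(FPKM + 1), shrinking each gene's variance toward a trend on its level. A gene entered when 3 or more libraries reached 1 FPKM (11415 genes). The code was tested on simulated data. Correlations used 100000 permutations.

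All 8 genes were named in every comparison. From each list, called genes (at most the 4 with the smallest p in each direction) or else the 1 with the smallest p qualified, and for each of the 8 the 3 nearest genes by r. Alternatives were 2 scalings, TPM, another pseudocount, other filters, a fold threshold, a replicate block, a fit of only the groups compared, a GC correction (values for 99.3% of genes) and leaving out each library. Same-numbered libraries gave correlations of deviations from group means of 0.154, 0.208 and 0.101 between TAC+control and TAC+pimobendan. Except for Pln and Actn2, the replicate block is therefore given beside the unblocked calls between these groups. It is also given for calls of TAC+pimobendan against Sham+pimobendan, where these correlations were -0.263, 0.096 and -0.127. Every call printed is from the fit without the block, and the labels name no shared litter or batch. The range over all 18 same-numbered pairs was -0.44 to 0.253, and over the 36 differently numbered pairs -0.413 to 0.434. One erythroid marker is not reported here. Promoter windows matched by gene symbol to the RefSeq table.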

Additional observations from a re-analysis of the deposited data

How the results depend on the processing

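In the 22 alternatives run (21 for contrasts over all groups), no called difference of the 8 genes changed sign. Genes called after TAC without drug went from 0 to 2 with only the groups compared, and to 0 to 4 with a library left out (4 without TAC+control replicate 1). For TAC+pimobendan against TAC+control, the 373 genes called became 22 with a log2 fold change of 1 or more in size, 1110 with TPM in place of FPKM, 1 with the replicate block, and 0 with median-ratio scaling, quantile normalization, no filter on low values, only the groups compared, the GC correction and the GC correction with replicate block. Leaving out a library gave 0 to 1190: 659 without Sham+control replicate 1, 1 without replicate 2 and 202 without replicate 3. It gave 154 and 1 without Sham+pimobendan replicates 1 and 2, 3 and 0 without TAC+control replicates 1 and 3, and 1190, 0 and 3 without TAC+pimobendan replicates 1, 2 and 3. Members called there went from 1 to 0 under each of these except TPM, with a pseudocount of 0.1 as well, and to 0 or 1 with a library left out.

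For TAC+pimobendan against Sham+pimobendan, the 558 genes called became 51 with a log2 fold change of 1 or more in size, 355 with median-ratio scaling, 298 with quantile normalization, and 0 with no filter on low values, the replicate block, only the groups compared, the GC correction and the GC correction with replicate block. Leaving out a library gave 0 to 1225: 312 without Sham+control replicate 2; 328, 0 and 0 without Sham+pimobendan replicates 1, 2 and 3; 360 and 366 without TAC+control replicates 1 and 3; and 1225, 0 and 0 without TAC+pimobendan replicates 1, 2 and 3. Members called went from 1 to 0 with the fold threshold, no filter on low values, the replicate block, only the groups compared and either GC correction, and to 0 or 1 with a library left out.

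For the difference between both TAC effects, leaving out a library gave 0 to 773 genes and 0 or 1 member, the 773 and the 1 both without TAC+pimobendan replicate 1. For the mean of both TAC effects it gave 0 to 84 genes, the 84 without that same library. For the mean of both pimobendan effects, the 1 gene called became 0 with the fold threshold or no filter on low values, 2 with the GC correction with replicate block, and 0 to 2 with a library left out. The cause of these shifts was not tested. Library depth is unknown, 3 mice a group limit precision, and the replicate block changed no other call of the 8 genes.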
